A study of Macaca mulatta with 5 samples.

Results

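The outer stretches of the rhesus monkey (Macaca mulatta) autosomes were examined for DNA methylation by MeDIP-seq, in which an antibody against methylated cytosine pulls down sheared DNA that is then sequenced. Members were all MeDIP peaks below 1000 bp on chromosomes 1 to 20 whose midpoint lay within 5 Mb of position 1 or of the last base, taken as the largest peak end in either list. There were 7875 such peaks among 48838 in the library of embryonic stem cells, labelled rESC, and 13288 among 83528 in the library labelled R_NSCP1, or 21163 of 132366 peaks in all. The series set R_NSCP1 against rESC in a study of neural fate determination, and every sample, R_NSCP1 included, carries the cell type label of embryonic stem cell. The labels do not spell out R_NSCP1 and give no age, sex, line or treatment for either. The files hold no gene names, so neither label could be checked against marker genes.

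Each cell type had 1 MeDIP library and 1 library of long noncoding RNA (lncRNA), while the input, a mix of both, was not analysed here. No difference between the cell types can therefore be tested, and peaks of 1 library are not replicates of each other. Intervals are 95% intervals that cover counting error only. The libraries held 8690541 tags in rESC and 9071243 tags in R_NSCP1, a ratio of 1.04. Peaks were called in each library without a control, so copy number and mappability were not removed and cannot be told apart from methylation.

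In mammals cytosine methylation lies almost wholly at CpG dinucleotides. A MeDIP peak marks a place where methylated CpGs are both present and dense, since the antibody recovers fragments with many methylated cytosines best. The subtelomeres, the stretches next to the telomere repeats, are known in primates for a high GC content, a high gene density and segments duplicated between chromosomes. In the text below the end at position 1 is called the low end and the end at the last base the high end, since the files give no centromeres and so no short and long arms.

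MeDIP peaks were crowded near the chromosome ends in both libraries. In rESC there were 39.4 peaks per Mb within 5 Mb of an end (38.5 to 40.3) and 14.3 per Mb in the rest of the autosomes (14.1 to 14.4). In R_NSCP1 there were 66.4 per Mb near the ends (65.3 to 67.6) and 25.1 per Mb in the interior (24.9 to 25.3). The end zones thus held 2.76 times the interior density in rESC (2.69 to 2.82) and 2.64 times in R_NSCP1 (2.60 to 2.69). They made up 7.32% of the autosomal bases and held 17.9% of the rESC and 17.3% of the R_NSCP1 autosomal peaks below 1000 bp. Peaks covered 1.42% of the end zones in rESC and 2.28% in R_NSCP1, against 0.461% and 0.775% of the interior.

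The density fell with distance from the end and did not stop falling at 5 Mb. From the outermost to the fifth Mb it went in rESC from 46.9 through 44.3, 39.3 and 34.8 to 31.5 peaks per Mb. In R_NSCP1 the same 5 steps were 76.2, 73.9, 65.7, 61.0 and 55.4 peaks per Mb, so both libraries lost peaks at each step. Between 10 and 15 Mb there were 17.9 peaks per Mb in rESC and 32.6 in R_NSCP1, and between 20 and 30 Mb 13.9 and 24.6. Just inside the limit, from 4.5 to 5 Mb, lay 628 rESC and 1076 R_NSCP1 peaks, and just outside it, from 5 to 5.5 Mb, 543 and 1019. Set against the neighbouring bases 5 to 10 Mb from an end alone, the end zones held 1.67 times the density in rESC and 1.57 times in R_NSCP1.

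**Figure D1:**
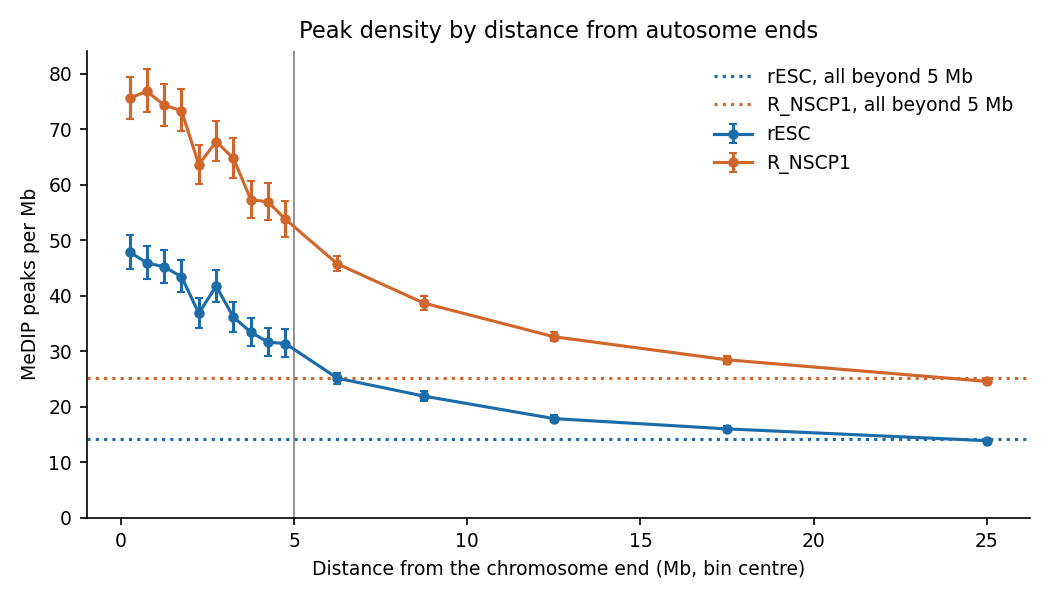
MeDIP peaks per Mb (y axis) against distance from the autosome end in Mb (x axis, bin centres), in rESC and R_NSCP1, with 95% Poisson intervals; dotted lines give each library's density over all bases beyond 5 Mb and the grey line marks 5 Mb. Both curves are highest in the outermost Mb, rESC at 0 to 0.5 Mb (47.9 peaks per Mb) and R_NSCP1 at 0.5 to 1 Mb (76.85). Between 2 to 2.5 Mb and 2.5 to 3 Mb they rise, from 36.85 to 41.75 in rESC and from 63.65 to 67.8 in R_NSCP1. The curves meet their dotted lines only between 20 and 30 Mb.

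The crowding near ends was larger among peaks with stronger statistical support. Counting only peaks with a −log10 q of at least 5, in the authors' peak lists, the density ratio of ends over interior was 3.01 in rESC and 2.89 in R_NSCP1. At a −log10 q of at least 10 it was 4.18 (3.998 to 4.37) and 3.78 (3.67 to 3.90), and at 20 it was 4.97 (4.55 to 5.42) and 4.89 (4.57 to 5.21). At 50 it reached 5.99 (4.76 to 7.51) in rESC, from 115 peaks near ends, and 6.56 (5.45 to 7.88) in R_NSCP1, from 180 peaks. The ratio therefore rose at each threshold in both libraries, and the intervals of the libraries overlapped at 20 and 50 but not at 10. Peaks of like −log10 q were not alike in fold enrichment over the local background, described below. In every range of −log10 q it was lower near ends. At 50 or more it was 13.0 against 16.5 in the interior in rESC, and 13.6 against 17.0 in R_NSCP1. The rise thus describes statistical support and not fold enrichment.

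**Figure D2:**
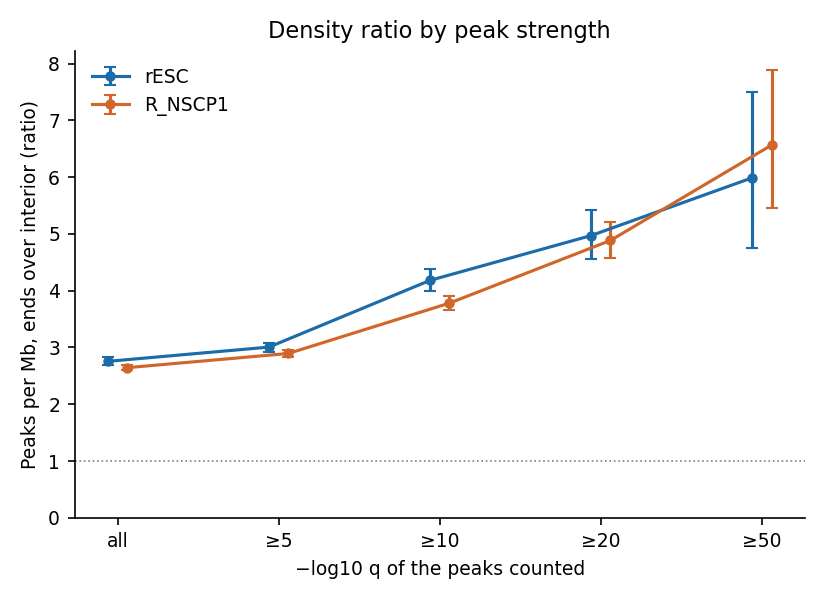
Peaks per Mb near autosome ends divided by peaks per Mb in the interior (y axis) for all peaks and for peaks above 4 thresholds of −log10 q (x axis), with exact binomial 95% intervals; the dotted line marks equal density. The ratio runs from 2.76 to 5.99 in rESC and from 2.64 to 6.56 in R_NSCP1.

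The 40 chromosome ends were unequal, and 1 of them did not share the pattern. Over the ends the density ran from 10.2 through a median of 42.2 to 64.2 peaks per Mb in rESC, and from 15.6 through 67.8 to 87.8 in R_NSCP1. In both libraries 39 of 40 ends were denser than the interior of the same chromosome, and 33 ends in rESC and 31 in R_NSCP1 were at least 2 times as dense. The exception in both was the low end of chromosome 12, with 10.2 peaks per Mb in rESC (0.763 times its interior) and 15.6 in R_NSCP1 (0.697 times). Its other end, the high end of chromosome 12, held 43.4 and 81.8 peaks per Mb.

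After chromosome 12 the sparsest ends were the same in both libraries. They were the low end of chromosome 7 (17.2 peaks per Mb in rESC and 32.4 in R_NSCP1), the low end of chromosome 2 (19.4 and 31.6), the high end of chromosome 1 (21.2 and 41.0) and the high end of chromosome 2 (26.0 and 48.2). The densest end in rESC was the low end of chromosome 9 with 64.2 peaks per Mb, followed by the high ends of chromosomes 17 (53.2), 4 (51.8) and 3 (51.4) and the low end of chromosome 3 (50.8). In R_NSCP1 the densest was the low end of chromosome 15 with 87.8 peaks per Mb, followed by the high ends of chromosomes 20 (87.2), 16 (87.0) and 3 (85.2) and the low end of chromosome 9 (84.0). Only the low end of chromosome 9 and the high end of chromosome 3 were among the 5 densest in both.

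The libraries ranked the 40 ends alike, with a Spearman rho of 0.899 over ends, which share their DNA sequence and mappability between the libraries. Over the whole 5 Mb zones high ends were a little denser than low ends. In rESC they held 40.7 peaks per Mb (39.5 to 42.0) against 38.0 (36.8 to 39.3), and in R_NSCP1 69.7 (68.0 to 71.3) against 63.2 (61.7 to 64.8). The high end was the denser one on 11 of 20 chromosomes in either library. In the outermost Mb alone low ends were the denser ones in rESC, at 48.3 against 45.55 peaks per Mb. In R_NSCP1 the values there were 75.75 at low and 76.7 at high ends. Because the last base was set by the outermost peak, empty sequence beyond it is left out at high ends but counted at low ends. For comparison, the interiors were cut into 496 windows of 5 Mb. The densest interior window reached 43.6 peaks per Mb in rESC and 75.8 in R_NSCP1, and 1 window in each library lay above the median of the ends. Among the 40 densest windows of ends and interiors, 30 in rESC and 31 in R_NSCP1 were chromosome ends.

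**Figure D3:**
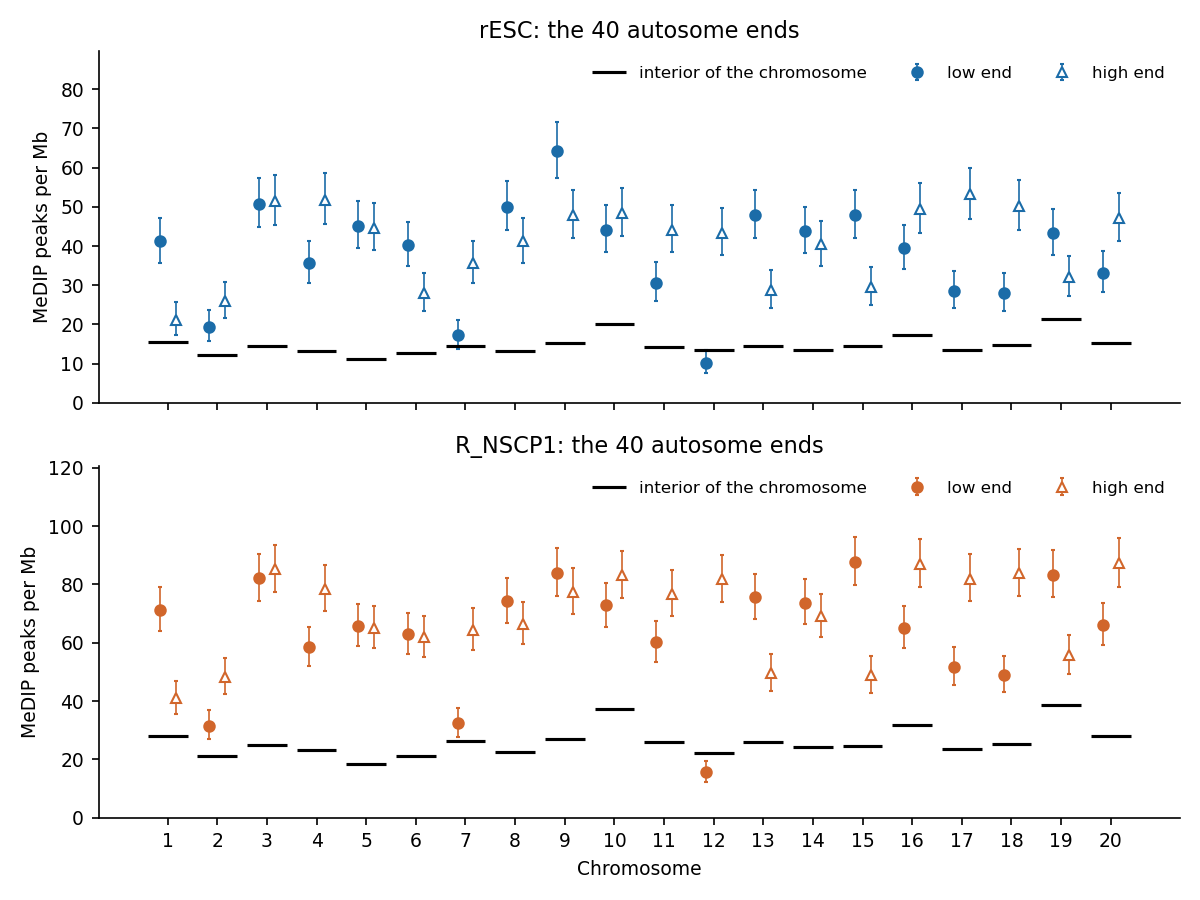
MeDIP peaks per Mb (y axis) in the outer 5 Mb of each chromosome (x axis) at the low end (filled circles) and the high end (open triangles), with exact Poisson 95% intervals, and in the interior of the same chromosome (black bars), for rESC (top) and R_NSCP1 (bottom). Apart from the low end of chromosome 12, at 10.2 and 15.6 peaks per Mb, every point estimate lies above its black bar.

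In windows of 1 Mb the richest place was the outermost Mb of the low end of chromosome 9, bases 1 to 1000000, with 119 rESC and 140 R_NSCP1 peaks. Next came a window on chromosome 3 (196362015 to 197362014), where 81 and 123 peaks were called. The outermost Mb of the high end of chromosome 9 (129912795 to 130912794) held 67 and 110. A window on chromosome 17 (92676482 to 93676481) held 68 and 108, and the outermost Mb of the low end of chromosome 8 held 72 and 104. The poorest was the outermost Mb of the low end of chromosome 12, with 6 and 10 peaks. R_NSCP1 had more peaks than rESC in all 200 of the 1 Mb windows near ends, each of which held at least 16 peaks over both libraries. This excess was not particular to the ends. The whole lists held 83528 and 48838 peaks, and the R_NSCP1 to rESC ratio was 1.76 in the interior and 1.69 near ends.

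Whether R_NSCP1 outnumbered rESC more near the ends or in the interior depended on which peaks were counted. Over all peaks R_NSCP1 had 1.69 times as many as rESC near ends (1.64 to 1.74) and 1.76 times as many in the interior (1.74 to 1.78). The ratio was 1.62 in the outermost Mb (1.53 to 1.72) and 1.76 in the fifth (1.64 to 1.88), with overlapping intervals. Restricted to a −log10 q of 10 or more, it was 2.06 near ends (1.97 to 2.16) and 2.28 in the interior (2.22 to 2.34). The order was the opposite among peaks without a partner, with 4.28 near ends (4.06 to 4.52) and 3.16 in the interior (3.10 to 3.22). Shared peaks were nearly as many in rESC as in R_NSCP1, 6214 and 6182 near ends and 23441 and 23409 in the interior. The ratio without a partner is therefore set by the totals and the sharing described below, and is no separate result. At a −log10 q of 50 or more the ratios were 1.57 (1.23 to 1.995) and 1.43 (1.21 to 1.69), with overlapping intervals. The R_NSCP1 list was also shortened to its strongest autosomal peaks, as many as rESC has. The ratio was then 1.19 near ends (1.15 to 1.22) and 0.958 in the interior (0.944 to 0.972), so the order turned there too. With lists of equal size the ratios of ends and interior are tied and are not separate results. Only R_NSCP1 lost its weaker peaks, and stronger peaks were more crowded near ends in both libraries.

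Single ends ranged in this ratio from 1.31 (1.13 to 1.52) at the low end of chromosome 9 to 2.21 (1.81 to 2.72) at the high end of chromosome 6. At 35 of 40 ends the interval included 1.76, the ratio over the interiors of all autosomes together. The exceptions were the high end of chromosome 6, above it, and, below it, the low ends of chromosomes 8 and 9 and both ends of chromosome 5 (1.46 each). The ends were not set against the interior ratio of their own chromosome. Interior densities were 11.2 peaks per Mb in rESC and 18.5 in R_NSCP1 on chromosome 5, and 13.2 and 22.7 on chromosome 8. On chromosome 6 they were 12.8 and 21.2, and on chromosome 9 15.2 and 27.2. These exceptions are therefore departures from the ratio over all interiors, and whether they depart from the same chromosome was not tested.

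Peaks near ends were taller than interior peaks of the same library, but they also stood on a higher local background. The pileup, which counts the fragments over a peak's summit in the deposited lists and is not scaled between libraries, had a median of 17 near ends and 12 in the interior in rESC, and of 19 and 12 in R_NSCP1. The quartiles near ends were 13 to 24 in rESC and 14 to 25 in R_NSCP1, against 9 to 16 and 10 to 17 in the interior. The local background, read back from the fold enrichment as the number of tags in the 10 kb around a peak, had a median of 87 tags near ends and 40 in the interior in rESC, and of 97 and 41 in R_NSCP1. A 10 kb stretch holds 29.0 tags on average in rESC and 30.2 in R_NSCP1, so the medians near ends were 3.003 and 3.21 times the average and the interior medians 1.38 and 1.36 times.

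The fold enrichment of the deposited lists, which sets the pileup against that background, was slightly lower near ends. Its median was 5.80 near ends (5.78 to 5.81) against 6.04 in the interior (6.01 to 6.05) in rESC, and 5.87 (5.84 to 5.90) against 6.27 (6.27 to 6.30) in R_NSCP1. At 35 of 40 ends in each library the median fold enrichment was below that of the interior of the same chromosome, while the median pileup was above it at 37 of 40. In this measure, whose background includes the peaks themselves, peaks near ends stood out from their surroundings no more than interior peaks did. The peak caller never sets the background below the genome-wide average, and 29.2% of interior but 4.46% of end peaks in rESC, and 29.5% and 4.32% in R_NSCP1, were at that floor.

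All these measures changed steadily towards the end. In rESC the median pileup went from 15 in the fifth Mb to 20 in the outermost, the background from 67 to 111 tags and the median length from 294 to 321 bp. In R_NSCP1 they went from 16 to 21, from 73 to 123 tags and from 286 to 307 bp. The median fold enrichment moved the other way, from 5.97 to 5.55 in rESC and from 6.09 to 5.64 in R_NSCP1. Over all end zones the median length was 309 bp in rESC (306 to 311) and 296 bp in R_NSCP1 (294 to 298), against 282 bp (281 to 283) and 272 bp (272 to 273) in the interior. Over all peaks those of R_NSCP1 were thus shorter in both zones, and so were the fragments, at 236 bp against 249 bp; the part of fragment length in this was not tested. Among shared peaks those of R_NSCP1 were the longer ones, at 361 against 330 bp near ends and 320 against 302 bp in the interior. Peaks near ends without a partner, which are 7106 in R_NSCP1 and 1661 in rESC, had like median lengths of 265 and 264 bp. With the R_NSCP1 list alone cut to its strongest peaks, to equal size, R_NSCP1 peaks were longer near ends as well, at 319 against 309 bp. At a −log10 q of at least 10 in both libraries they were shorter, at 365 against 412 bp. The length limit left out 80 rESC and 103 R_NSCP1 peaks near ends of 1002 bp and more, and the longest peaks kept had 996 and 997 bp.

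**Figure D4:**
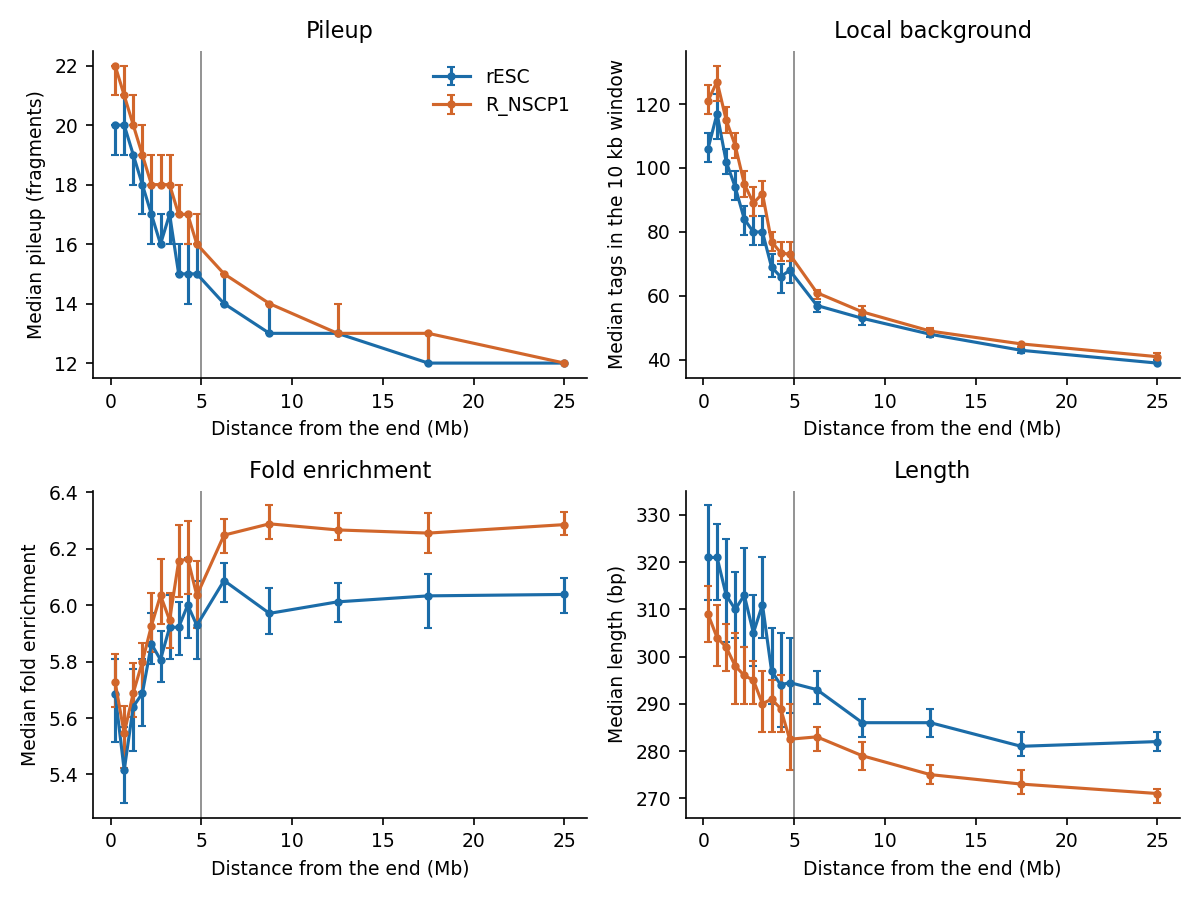
Medians of pileup (fragments), background (tags in the 10 kb window), fold enrichment and length (bp) of peaks (y axes, not starting at 0) against distance from the autosome end in Mb (x axes) in rESC and R_NSCP1, with 95% order-statistic intervals; the grey line marks 5 Mb. Pileup, background and length are highest in the outermost Mb, whereas fold enrichment is lowest there.

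Among the 5 sparsest ends, median pileup and background ranged from the lowest of all ends to about the middle. At the low end of chromosome 12 the median pileup was 10 in both libraries and the median background 29.0 tags in rESC and 30.2 in R_NSCP1, in R_NSCP1 the genome-wide average itself. At the low end of chromosome 2 the median pileup was 11 in rESC and 11.5 in R_NSCP1, with 38 and 32 tags. The high end of chromosome 1 had a median pileup of 13 in both libraries, with 54.5 and 45 tags, and the low end of chromosome 7 had 14.5 and 15, with 58.5 and 65 tags. The high end of chromosome 2 had 17 in both, with 75 and 79 tags, where the medians over the 40 ends were 17 and 19 for pileup and 81.2 and 92.2 for tags. The highest median background belonged to the low end of chromosome 15 and the high end of chromosome 16 in rESC, 110 tags each, and to the low end of chromosome 19 in R_NSCP1, 135 tags. Across the 40 ends density and median background had a Spearman rho of 0.680 in rESC and 0.810 in R_NSCP1, both read from the same tags.

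Peaks near ends were more often called in both libraries than interior peaks. In rESC 6214 of 7875 peaks near ends shared 1 bp or more with an R_NSCP1 peak, or 78.9% (95% Wilson interval 78.0% to 79.8%), against 64.8% (64.3% to 65.3%) in the interior and 67.8% over the whole rESC list. In R_NSCP1 6182 of 13288 peaks near ends overlapped an rESC peak, or 46.5% (45.7% to 47.4%), against 36.8% (36.4% to 37.2%) in the interior and 39.7% over the whole R_NSCP1 list. The overlap was most frequent in the outermost Mb, 83.3% in rESC and 50.2% in R_NSCP1, and reached 74.6% and 42.5% in the fifth. Shared peaks were 3.35 times as dense near ends as in the interior in rESC and 3.34 times in R_NSCP1. Peaks without a partner were also denser near ends, but by 1.65 times in rESC (1.57 to 1.74) and 2.24 times in R_NSCP1 (2.18 to 2.30).

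Whether sharing exceeded the interior level at equal peak strength depended on how strength was measured. At equal −log10 q below 15, rESC peaks were shared more often near ends: 62.5% against 47.3% at a −log10 q of 4 to 6, and 94.2% against 90.4% at 10 to 15. At 15 to 20 the rESC share was 98.4% in both zones, and at 20 to 50 it was 99.5% against 99.7%. R_NSCP1 peaks differed less, with 23.3% against 18.4% at 4 to 6 and 58.5% against 56.8% at 10 to 15. At equal pileup the order turned round, in every bin in R_NSCP1 and from a pileup of 15 upwards in rESC. With a pileup of 20 up to 30, 89.3% of rESC peaks near ends and 93.5% in the interior were shared, and 52.6% against 68.8% in R_NSCP1. In that bin the fold enrichment was 6.02 near ends and 7.75 in the interior in rESC, and 5.94 and 8.13 in R_NSCP1. At equal −log10 q it was lower near ends as well, so neither measure held fold enrichment equal.

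With the interior shares weighted to the strengths found near ends, the excess of 14.1 percentage points in rESC became 7.58 by −log10 q and -1.42 by pileup. In R_NSCP1 the excess of 9.71 points became 2.36 by −log10 q and -9.40 by pileup. The higher share near ends was thus tied in size and in direction to the measure of strength held equal.

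**Figure D5:**
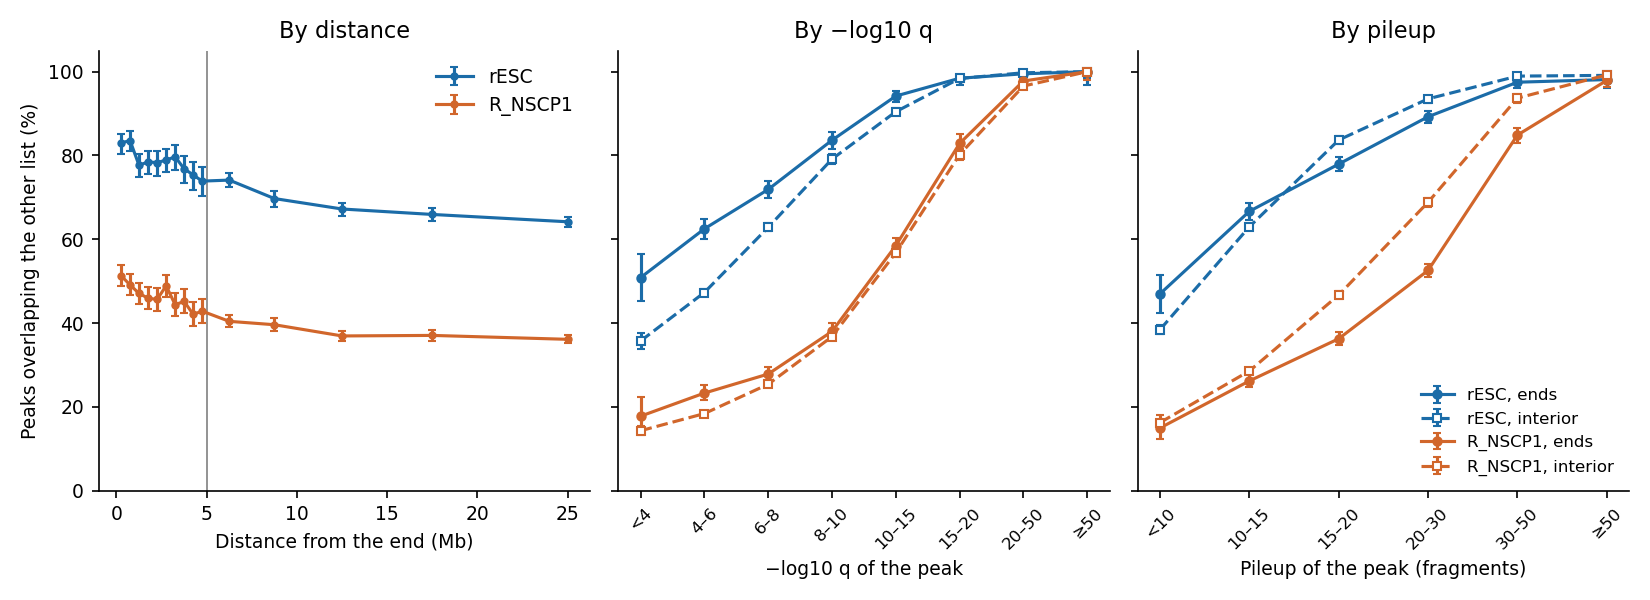
Percent of peaks that overlap a peak of the other library (y axis) by distance from the end in Mb (left), by −log10 q of the peak (middle) and by pileup of the peak (right), with 95% Wilson intervals; in the middle and right panels filled circles are peaks near ends and open squares interior peaks. At a −log10 q of 4 to 6, 62.5% of rESC peaks near ends against 47.3% in the interior were shared, and at a pileup of 20 up to 30, 52.6% against 68.8% of R_NSCP1 peaks.

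By chromosome end the shared percent ran from 56.9% to 83.9% in rESC and from 34.6% to 62.1% in R_NSCP1. The lowest rESC shares belonged to the low end of chromosome 12 (56.9%), the low end of chromosome 2 (64.9%), the high end of chromosome 1 (67.0%) and the low ends of chromosomes 7 (68.6%) and 14 (72.6%), of which the first 4 were also the sparsest. The highest were at the high ends of chromosomes 20 (83.9%) and 6 (83.6%), the low end of chromosome 1 (83.5%), the high end of chromosome 9 (83.3%) and the low end of chromosome 15 (82.8%). In R_NSCP1 the highest were the low end of chromosome 9 (62.1%), the high and low ends of chromosome 5 (54.3% and 53.8%) and the low ends of chromosomes 8 (52.8%) and 6 (51.7%). The lowest R_NSCP1 shares were at the high end of chromosome 1 (34.6%), the low end of chromosome 7 (36.4%), the high end of chromosome 6 (37.1%) and the low ends of chromosomes 12 (37.2%) and 20 (38.1%). The high end of chromosome 6 was thus among the most shared for rESC and the least shared for R_NSCP1, beside its R_NSCP1 to rESC ratio of 2.21.

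Where peaks of both libraries overlapped near an end, the R_NSCP1 peak of the pair was mostly the taller one. Summits of the 6214 pairs were a median of 36 bp apart, and the median rESC peak was covered over 94.2% of its length. Interior pairs gave 35 bp and 92.1%. Pairs were formed by overlap, so their closeness is no separate result. After scaling by tags and fragment length, the log2 pileup of R_NSCP1 minus rESC had a median of 0.31 (quartiles 0.06 to 0.56) and was above 0 in 5051 pairs, or 81.3%. In the interior the median was 0.22 (quartiles -0.07 to 0.51), and 73.4% of 23441 pairs were higher in R_NSCP1. Near ends 249 pairs (4.01%) were at least 2-fold higher in R_NSCP1 and 7 (0.113%) in rESC, and in the interior 934 (3.98%) and 50 (0.213%). The share at least 2-fold higher in R_NSCP1 was thus about the same in both zones.

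The local background of the same pairs moved with this. Scaled by tags, its log2 difference of R_NSCP1 minus rESC had a median of 0.21 near ends (quartiles 0.02 to 0.39) and 0.03 in the interior (quartiles -0.09 to 0.25), where more peaks were at the floor. The median log2 difference of fold enrichment was 0.13 near ends and 0.16 in the interior. The pairs near ends therefore differed more in pileup and in background, but not more in fold enrichment, than the pairs of the interior.

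Peaks near ends lay close together. The median gap to the nearest peak of the same library was 8577 bp near ends and 20522 bp in the interior in rESC, and 5722 bp and 11900 bp in R_NSCP1. A neighbour within 1 kb was found for 14.1% of rESC and 16.3% of R_NSCP1 peaks near ends, against 6.21% and 8.001% in the interior. Of the 1661 rESC peaks near ends without a partner, 14.9% had an R_NSCP1 summit within 1 kb and 75.5% one within 10 kb, against 6.30% and 40.5% in the interior. Of the 7106 R_NSCP1 peaks near ends without a partner, 7.40% and 54.4% had an rESC summit within those distances, against 3.46% and 27.2% in the interior. The part of the higher peak density near ends in these shares was not tested.

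The tallest peaks near ends were the same 3 places in both libraries, and all stood on a very high background. On chromosome 9, 3.2 Mb from the low end, a peak from 3214001 to 3214702 had a pileup of 268 in rESC and its partner 311 in R_NSCP1. On chromosome 13 a peak from 135966440 to 135967147 stood at 271 and 300, and on chromosome 5 a peak from 184051670 to 184052102, 17421 bp from the high end, stood at 271 and 269. Their 10 kb windows held 1547, 2474 and 1710 tags in rESC, many times the average of 29.0, and their fold enrichments in rESC were 6.81, 4.34 and 6.24.

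The highest fold enrichments near ends were also shared, at places with far fewer tags around them. In rESC they were 23.4 at bases 130251085 to 130251734 of chromosome 11, 23.0 at bases 192026454 to 192026913 of chromosome 2, and 23.0 at bases 3125127 to 3125471 of chromosome 16. Their R_NSCP1 partners had fold enrichments of 20.99, 20.9 and 22.7. In R_NSCP1 the 3 highest were 23.2 at bases 129839 to 130294 of chromosome 8, 23.1 at bases 166701538 to 166702093 of chromosome 7, and 22.7 at the same place on chromosome 16, where the rESC peak had 23.0. The longest peaks below the limit were shared as well. They spanned 996 bp at bases 373696 to 374691 of chromosome 15, 996 bp at bases 197898906 to 197899901 of chromosome 3 and 994 bp at bases 741566 to 742559 of chromosome 9 in rESC. In R_NSCP1 they spanned 997 bp at bases 93590176 to 93591172 of chromosome 17, 997 bp at bases 741551 to 742547 of chromosome 9 and 996 bp at bases 167633216 to 167634211 of chromosome 4.

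Strong peaks present in 1 library only were few in both zones. With a −log10 q of 20 or more, 3 of 713 rESC peaks near ends had no partner (0.421%, 0.143% to 1.23%), against 4 of 1815 in the interior (0.220%, 0.0857% to 0.565%). In R_NSCP1 24 of 1260 near ends had none (1.90%, 1.28% to 2.82%), against 100 of 3264 in the interior (3.06%, 2.53% to 3.71%). The intervals of ends and interior overlapped in both libraries. The 3 in rESC were a peak of chromosome 4 at bases 166122569 to 166123146 (pileup 41, −log10 q 25.6), one of chromosome 12 at bases 104996776 to 104997289 (56 and 21.2) and one of chromosome 9 at bases 681006 to 681256 (188 and 20.6). The last had a fold enrichment of 2.32 and 3229 tags in its 10 kb window, the highest background of any autosomal rESC peak below 1000 bp. The strongest in R_NSCP1 were a peak of chromosome 9 at bases 3280894 to 3281186 (pileup 42, −log10 q 28.2), one of chromosome 16 at bases 78182919 to 78183245 (38 and 25.8) and one of chromosome 4 at bases 167706756 to 167707267 (35 and 25.6), each with a fold enrichment of at least 9.99.

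Places with an extreme background were more frequent near ends and piled up at the low end of chromosome 9. Windows of 10 kb with at least 10 times the average number of tags, a limit chosen after the data were seen, surrounded 281 rESC peaks near ends (3.57%, 3.18% to 4.001%) and 448 R_NSCP1 peaks (3.37%, 3.08% to 3.69%). In the interior they surrounded 0.619% and 0.447% of peaks. The low end of chromosome 9 held 89 of the 281 and 92 of the 448, and within its outermost Mb 73 of 119 rESC and 74 of 140 R_NSCP1 peaks were of this kind. The median pileup there was 68 in rESC and 55.5 in R_NSCP1, against 17 and 19 from 1 to 5 Mb on the same end. Without all such peaks the density ratio of ends over interior was 2.67 in rESC and 2.57 in R_NSCP1, and without the low end of chromosome 9 it was 2.71 and 2.63.

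Listed lncRNAs, transcripts without a protein product, were also denser near chromosome ends. Of 1268 autosomal lncRNAs in the authors' table, 187 started within 5 Mb of an end, 0.935 per Mb (0.806 to 1.08) against 0.427 per Mb (0.402 to 0.453) in the interior, a ratio of 2.19 (1.86 to 2.56). Their FPKM, a level scaled to transcript length and sequencing depth, had a median of 2.13 in rESC and 2.40 in R_NSCP1, close to the interior medians of 2.20 and 2.47. Of the 187, 20 had a MeDIP peak no more than 1000 bp from their start in rESC, 10.7% (7.03% to 15.9%), and 34 in R_NSCP1, 18.2% (13.3% to 24.3%). Each listed transcript was counted, and some share a start, such as those from 566174 on chromosome 4. The same peak can thus count more than once, and the intervals do not allow for this. In the interior these shares were 3.98% (2.97% to 5.32%) and 6.94% (5.57% to 8.61%), beside the lower peak density there. Of the lncRNAs near ends, 17 had a peak at the start in both libraries, 17 in R_NSCP1 only and 3 in rESC only, and of the 1081 interior lncRNAs 33, 42 and 10 did.

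On the log2(FPKM + 0.1) scale, 62 of 185 detected lncRNAs near ends, 33.5% (27.1% to 40.6%), stood 2-fold or more above rESC in R_NSCP1, against 34.7% of all detected lncRNAs. At least 2-fold higher in rESC were 42, or 22.7% (17.3% to 29.3%), against 30.8% of all detected and 31.7% (29.0% to 34.5%) of interior lncRNAs. The most abundant near an end lay on the plus strand of chromosome 19 from 1647391 to 1656302, at 115.3 FPKM in rESC against 97.8 in R_NSCP1, and it had a peak at its start in both. A second lncRNA of chromosome 19, from 462283 to 468415, stood at 27.0 and 39.4 and also had a peak at its start in both. Transcripts of chromosome 7 with a common end, from 2838599 and from 2792500 to 2883431, stood at 77.4 and 52.2 in rESC and at 5.58 and 8.89 in R_NSCP1, with no peak at the start or in the body in either library. A lncRNA of chromosome 20 from 3236948 to 3244236 stood at 48.4 in rESC, was listed at 0 in R_NSCP1 and had no peak either.

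Peaks near ends seldom lay in a listed lncRNA. In rESC 85 of 7875 peaks overlapped one, 1.08% (0.874% to 1.33%), and in R_NSCP1 129 of 13288, 0.971% (0.818% to 1.152%). The bodies of lncRNAs that start near ends, if counted in full, come to 0.963% of the end zones, so this share was near the share of bases they take up.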

How the data were processed

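Sheared DNA of each cell type was made into a library before methylated DNA was pulled down, per the labels' protocols. BWA 0.7.7 and MACS2 are named in the submitters' processing notes. Peaks were called by the authors with MACS 2.1.0.20150731, per the file headers, on each library separately, with no control, a q cutoff of 0.01, at most 1 tag per position and a background over 10000 bp. For the build, not given in the sources used here, no genome was at hand; coordinates are those of the files (1-based) and no sequence or gene name is printed. The deposited pileup signal counts fragments at the summit. The deposited fold enrichment is a ratio of pileup to background, each with 1 added. The −log10 q of the deposited lists is MACS's own. The deposited lncRNA table holds the authors' FPKM, with TopHat2 2.0.11 in the submitters' processing notes; its depth is unknown.

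From pileup, fold enrichment and fragment length the tags in the 10 kb window were computed. They came out whole, within 0.05, for all 33355 rESC and 57810 R_NSCP1 autosomal peaks above the genome-wide floor. Peaks were placed by their midpoint, and at high ends distance is counted from the outermost peak. Sharing means an overlap of at least 1 bp with any peak of the other list. Intervals are exact Poisson (counts), exact binomial (ratios), Wilson (shares) and order-statistic (medians), all at 95%.

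Regions were named by rule: the 5 ends with the most and the fewest peaks per Mb and the highest and lowest shared percent, the 3 highest peaks near ends by pileup, length, fold enrichment and, without a partner, −log10 q, the 5 richest 1 Mb windows and the 5 most abundant lncRNAs. Members, lists and comparisons were chosen with earlier results of these data known. The steps were tested on simulated data. Software was Python 3.11.15 with scipy 1.17.1, numpy 2.4.6 and pandas 2.3.3, and figures were drawn in matplotlib 3.10.9.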

Additional observations from a re-analysis of the deposited data

How the results depend on the processing

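With 1 library per cell type no replicate could be left out, and every value depends on peaks called without a control. No paired analysis was possible because each group holds 1 library and no result comes from a test. Chromosome lengths from a reference of the files' build were not run, since none was used here. The effect of depth on weak peaks was not tested. Of 76 recomputed values 36 stayed within the counting interval of the value reported and 40 did not, and none of the recomputed density ratios or count ratios near ends crossed 1. All values for peaks of any length, and without the low end of chromosome 9, were among the 36.

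The other settings gave these values, R_NSCP1 before rESC. With zones of 2 Mb the density ratios of ends over interior were 2.81 and 2.99, the median lengths 303 and 316 bp, the median pileups 21 and 19 and the shared percents 48.4% and 80.7%. With zones of 10 Mb they were 2.30 and 2.33, 290 and 301 bp, 17 and 16, and 44.0% and 76.4%. At a −log10 q of at least 10 they were 3.78 and 4.18, 365 and 412 bp, 27 and 27, and 40.7% and 83.9%, and the R_NSCP1 to rESC count ratio was 2.06. These shared percents count only partners that also reach a −log10 q of 10. Against the whole other list, 1429 of 5254 R_NSCP1 and 88 of 2548 rESC peaks near ends had no partner. Without the outermost 500000 bp the R_NSCP1 median pileup was 18. With the R_NSCP1 list shortened to the size of the rESC list the count ratio was 1.19, and in R_NSCP1 the density ratio was 3.41, the median length 319 bp, the median pileup 22 and the shared percent 56.1%, against 67.4% in rESC. With these lists the order of the libraries turned for the density ratio (2.76 in rESC) and for the median length (309 bp in rESC). The count ratio in the interior was 0.958. Only R_NSCP1 lost its weaker peaks in this setting. With a −log10 q of at least 10 required in both libraries, rESC kept the higher density ratio and the greater median length. With an overlap of at least 50% of the peak, 44.1% and 76.4% were shared. Against the bases 5 to 10 Mb from an end the density ratios were 1.57 and 1.67. Without peaks in windows of 10 or more times the average tags they were 2.57 and 2.67, with an R_NSCP1 median pileup of 18 and 45.3% shared. The last 2 settings, and leaving out the low end of chromosome 9, were chosen after seeing the data. The cause was not tested.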

Other observations

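The outermost peaks differed between chromosomes in how near they came to position 1. In each library 6 of the 20 low ends had a peak midpoint within 1 kb of position 1. On chromosome 15 it lay 389.5 bp from position 1 in rESC and 432 bp in R_NSCP1, on chromosome 10 at 452.5 and 483.5 bp, and on chromosome 16 at 730 and 766 bp. On chromosome 6 the outermost R_NSCP1 midpoint lay at 268.5 bp and the outermost rESC midpoint at 8176 bp. The largest empty stretch was at the low end of chromosome 18, where the outermost midpoints lay 904194 bp from position 1 in rESC and 881252 bp in R_NSCP1. The outermost Mb of that end held 8 rESC and 14 R_NSCP1 peaks, and all 8 rESC peaks had a partner. High ends cannot be described in this way, because their last base was set by the outermost peak.

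Peaks near ends without a partner were lower and shorter than shared ones, in both libraries. In rESC their median pileup was 14 against 19 for shared peaks, their median length 264 against 330 bp and their median background 69 against 91 tags. In R_NSCP1 the values were 16 against 23, 265 against 361 bp and 86 against 111 tags. Compared with interior peaks without a partner, with a median pileup of 10 in rESC and 11 in R_NSCP1, they were taller.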
